A study of Mus musculus with 194 samples.

Results

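The 9 genes described here, Ttr, 1500015O10Rik, Folr1, Clic6, Kl, Prlr, Fmod, Bace2 and C3, are known from the choroid plexus and the meninges, tissues that border the dissected brain structures. They were chosen by name from 19363 genes in the table, on the basis of their levels and cocaine contrasts in earlier results of these same data. Their levels by structure and the contrasts that brought them up are therefore given as a description, and a member's call in them is not independent evidence.

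The choroid plexus is a folded epithelium inside the brain ventricles that secretes cerebrospinal fluid, and the meninges are the fibroblast-rich membranes around the brain. Neither is neural tissue, and both lie against parts of the striatum, hypothalamus and cortex. Beside them is the ependyma, the ciliated sheet that lines the ventricles. In pieces of tissue sequenced whole, fewer cells of a type and less RNA per cell cannot be told apart.

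Transcripts were counted from their 3′ ends in 5 brain structures of male C57BL/6OLAHSD mice: the amygdala (Amy), the dorsal striatum (DS), the limbic cortex (LCtx, medial prefrontal and cingulate cortex), the lateral hypothalamus (LH) and the nucleus accumbens (NAc). Cocaine at 20 mg/kg was given once (acute) or on 5 days in a row (repeated, labelled Chronic), or the 5 daily doses were followed by 21 days without drug and 1 more dose (challenge), and tissue was taken 0, 1, 2 or 4 hr later. At 0 hr the acute mice were naive, the repeated mice had had their last dose the day before, and the challenge mice were abstinent. The labels name no allele or transgene in any group. A sample was 1 structure of 1 mouse, and 28 of the 166 samples had libraries in 2 sequencing runs. Groups held 1 to 5 mice. Library totals were 1193306 to 10367769 counts, with a median of 3296648. Levels are given as counts per 1000000 counts of the library (CPM). The p-values measure the spread between mice, and tests of genes between groups were edgeR quasi-likelihood tests with Benjamini-Hochberg adjustment over all genes tested.

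The sample names give 9 sequencing runs, and these are unevenly spread over the experiences. Acute and repeated cocaine had no run in common in the LCtx, and no run of the LCtx or NAc held more than one experience. Run0255 held both acute and repeated libraries of the Amy and LH, whose challenge libraries were split between run0006 and run0215. Acute DS libraries came from run0090 and other DS libraries from run0230, and 8 DS mice of each experience had another library in run0194, called the shared run here. The sample names also carry an experiment code and an animal number. All acute mice had code exp20, all challenge mice exp18 and all repeated mice exp17, apart from 9 of the 17 repeated DS mice with exp16. Experience and code therefore cannot be told apart in any contrast between experiences, also within 1 run. Code and number together name 48 animals, of which 38 gave more than 1 structure, so that results in different structures share animals. Every mean over a structure mixes runs, and values by run are given beside each result they touch.

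The DS, NAc, LCtx and LH pieces carried neurons of their label, while no marker particular to the Amy is given. The dopamine receptor gene Drd1 had a median of 377 CPM in the DS and 188 in the NAc, against 5.56 to 24.2 in the other structures. Slc17a7, the vesicular glutamate transporter of cortical neurons, had a median of 1225 CPM in the LCtx, and the hypothalamic neuropeptide genes Hcrt and Pmch had medians of 5648 and 7160 CPM in the LH. The Amy also held Hcrt and Pmch, at medians of 367 and 622 CPM, while both had medians under 4 CPM in the LCtx, NAc and DS.

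The label of the choroid plexus was checked against 24 other genes of that tissue, and 14 of them had medians under 2 CPM in every structure. Kcne2, a potassium channel subunit, had medians of 0 to 0.511 CPM. Kcnj13, another potassium channel, had medians of 0.302 to 1.06 CPM. Otx2, a transcription factor of the epithelium, had medians of 0.0888 to 1.198 CPM and did not exceed 5.02 CPM in any mouse. Aqp1, its water channel, had medians of 0.219 to 0.832 CPM. The summed level of the list was 156 to 500 CPM per mouse, of which Enpp2, also made by oligodendrocytes, contributed medians of 129 to 336 CPM. Of the other genes, Car12 had medians of 3.91 to 84.0 CPM, Ace 3.68 to 26.7, Col9a3 12.5 to 23.5 and Slc13a4 1.08 to 10.5. The list thus mixes genes near 0 with genes well above it, while Ttr reached 413 CPM.

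Ttr, on GRCm38 chromosome 18 from 20665280 to 20674321 on the plus strand, encodes transthyretin, the thyroid hormone carrier that the choroid plexus epithelium secretes. In the LCtx, acute libraries (run0250, n = 8) held 0 to 1.82 CPM of Ttr with a median of 0.579. Repeated LCtx libraries (run0222, n = 7) held 42.6 to 65.2 with a median of 55.2. Challenge LCtx libraries split by run, with 1.26 to 5.56 CPM in run0006 (n = 6) and 102 to 130 in run0215 (n = 8). The challenge runs did not overlap, although both held the same experience in the same structure.

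The NAc showed the same division of Ttr by run. Acute NAc libraries (run0010, n = 14) held 59.4 to 110 CPM with a median of 76.3, and repeated ones (run0222, n = 8) 42.5 to 78.1 with a median of 57.2. Challenge NAc libraries held 2.72 to 5.26 CPM in run0006 (n = 8) and 64.2 to 136 in run0215 (n = 7). In the DS, Ttr ran from 30.05 to 184 CPM in run0090 (acute, n = 16), from 19.9 to 53.2 in run0230 for repeated cocaine (n = 17) and from 21.03 to 46.8 there for challenge (n = 15). In the shared run it was 0 to 2.22 CPM after acute cocaine, 0 to 0.586 after repeated cocaine and 0 to 6.09 after challenge, with 8 libraries each. No DS library of the shared run reached the lowest DS library of another run.

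Run0006 was low in Ttr only in the LCtx and NAc. Its challenge Amy libraries held 92.4 to 413 CPM of Ttr with a median of 121 (n = 8), against 98.8 to 189 with a median of 151 in run0215 (n = 8). Its LH libraries held 111 to 207 CPM with a median of 128 (n = 5), against 95.1 to 148 in run0215 (n = 3). Acute and repeated libraries of run0255 had Ttr medians of 111 and 101 CPM in the Amy and 164 and 112 CPM in the LH. Ttr was thus at 67.4 CPM or higher in every library of the Amy and LH, and its level in the other structures went with the run.

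**Figure D1:**
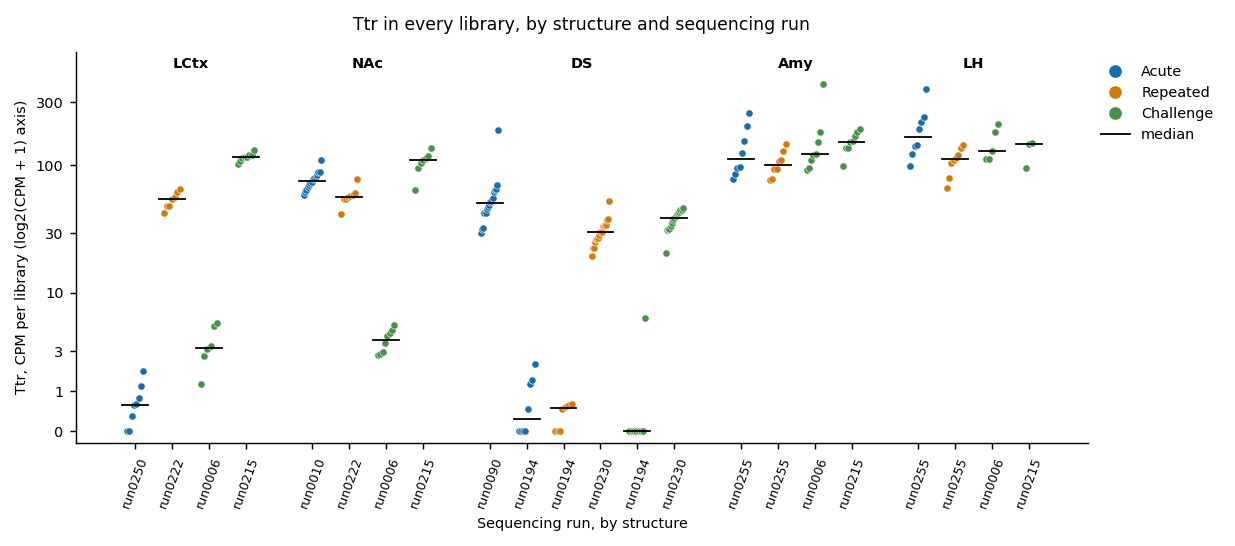
Ttr in every library, in CPM on a log2(CPM + 1) axis, by structure and sequencing run, with points ordered by value within a column, coloured by experience, and a line at the median. The columns of run0250 and run0006 in the LCtx, run0006 in the NAc and run0194 in the DS lie at 0 to 6.09 CPM, and all other columns start at 19.9 CPM or higher.

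The mice with 2 libraries separated the run from the mouse. Ttr was higher in the library from the mouse's own run (run0090 or run0230) than in its shared-run library in 24 of 24 DS mice, with 29 Ttr counts in the shared run against 3531 in the own runs. The own-run libraries held 19.9 to 70.8 CPM and the shared-run ones 0 to 6.09. In an edgeR fit with the mouse as a block, Ttr was higher in the own run by 6.30 on the log2 scale (SE 0.19, adjusted p = 6.85e-49) for 8 acute mice. The difference was 5.98 (SE 0.36, adjusted p = 5.64e-33) for 8 repeated mice and 5.26 (SE 0.32, adjusted p = 2.06e-37) for 8 challenge mice. DESeq2 gave 6.70, 6.17 and 7.68.

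Run differences in the DS were common, being called at an adjusted p under 0.05 and a fold change over 1.2 in 57.1%, 17% and 15.4% of genes tested in acute, repeated and challenge mice. Of 11194 genes tested in all 3 groups of mice, 448 were called in the same direction in each and 170 of these were higher in the own run. Among those, Ttr had the highest median log2 difference, followed by the ribosomal protein gene Rpl24 at 5.93, 5.13 and 6.04 and by Zc3h11a. Rpl24 and Zc3h11a were named after their values were seen. Rpl24 was higher in the own run in 24 of 24 DS mice, with 33 counts against 3615.

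Outside the DS, the other 4 samples with 2 libraries were challenge mice at 0 hr, in run0006 and run0215. Ttr and Rpl24 were both higher in run0215 in each of them, but by unlike amounts. In run0006 and run0215, Ttr was 1.26 and 118 CPM in the LCtx mouse and 2.82 and 64.2 CPM in the NAc mouse. It was 150 and 152 CPM in the Amy mouse and 112 and 148 CPM in the LH mouse. Rpl24 lay between 32.9 and 59.6 CPM in all 8 libraries.

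The other members differed less between the libraries of a DS mouse. Clic6, a chloride intracellular channel protein of secretory epithelia, had medians of 21.4 CPM in the shared run and 20.01 in the own runs, and was higher in the own run in 8 of 24 mice. In the acute mice alone Clic6 was lower in the own run in 8 of 8 (log2 difference -0.48, SE 0.12, adjusted p = 2.57e-04). 1500015O10Rik, which encodes the secreted peptide augurin, was higher in the own run in 16 of 24 mice, with medians of 3.39 and 5.89 CPM. Its difference was 0.50 (adjusted p = 0.340) in repeated and 0.25 (adjusted p = 0.645) in challenge mice, and too few counts were left to test it in acute mice. Bace2, a protease related to the amyloid precursor cleaving enzyme, was higher in the own run in 13 of 24 mice.

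C3, the central complement component, stood between these patterns. In the 8 acute DS mice, C3 was 0 to 1.65 CPM in the shared run (7 counts) and 3.61 to 8.12 CPM in run0090 (143 counts), higher in 8 of 8 (log2 difference 3.69, SE 0.42, adjusted p = 8.25e-13). In repeated and challenge mice C3 was higher in run0230 in 3 of 8 and 5 of 8. Folr1, Kl, Prlr and Fmod were too low in these libraries to be tested. Prlr was lower in the own run in 8 of 8 acute mice (medians 1.58 and 0.713 CPM) and Kl in 7 of 8 (medians 1.53 and 0.734 CPM). Over all 24 mice Prlr was lower in the own run in 14 and Kl in 10, while Fmod was higher in 15 and Folr1 in 14.

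**Figure D2:**
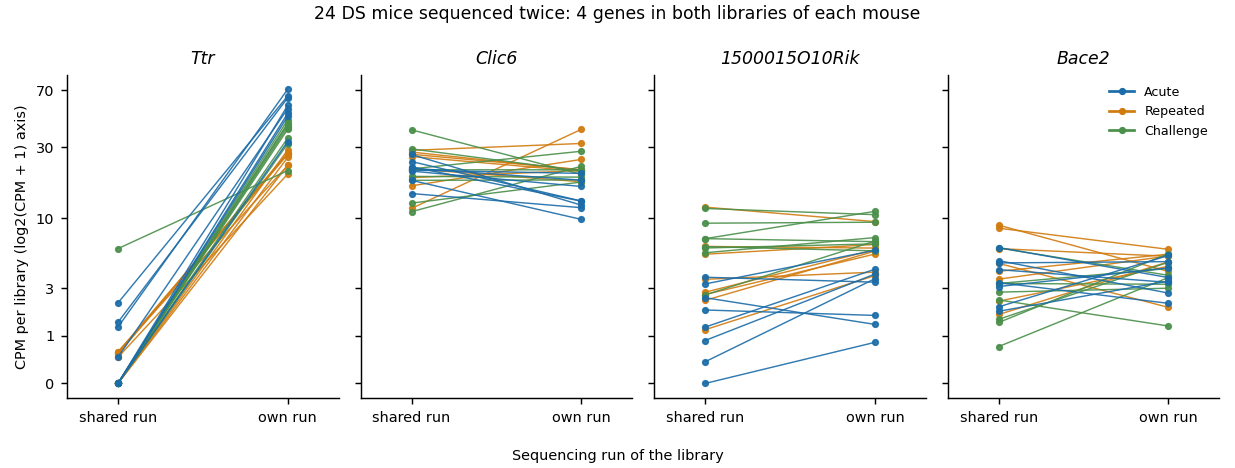
Ttr, Clic6, 1500015O10Rik and Bace2 in the 24 DS mice with 2 libraries, in CPM per library on a log2(CPM + 1) axis, with a line joining the shared-run and own-run library of each mouse and colours for the experience. All 24 Ttr lines climb from 0 to 6.09 CPM to 19.9 to 70.8 CPM, and the lines of the other genes run both ways.

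Prlr, the prolactin receptor gene (chromosome 15, 10177238 to 10349180, plus strand), was highest in the basal structures. Its lowest, median and highest levels per mouse were 14, 20.8 and 32.6 CPM in the LH (n = 23) and 9.53, 14.2 and 23.1 in the Amy (n = 31). The other medians were 1.13 CPM (NAc), 0.731 (DS) and 0.367 (LCtx). All 31 Amy mice were above the highest NAc mouse, while LH and Amy overlapped, with 4 of 23 LH mice above every Amy mouse. Runs did not divide Prlr in the Amy and LH, where medians by run and experience were 12.6 to 15.1 CPM and 18.1 to 26.0 CPM.

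Clic6 (chromosome 16, 92485736 to 92541243, plus strand) was highest in the ventral and dorsal striatum. Levels were 9.71, 22.9 and 34.1 CPM (lowest, median, highest) in the NAc and 9.51, 19.1 and 30.6 CPM in the DS. In the Amy they were 2.46, 5.86 and 11.1 CPM, in the LH 3.17, 5.65 and 8.19 CPM, and in the LCtx 0, 1.096 and 10.95 CPM. NAc and DS overlapped almost wholly, and 46 of 48 DS mice were above every Amy mouse. The medians of Amy and LH differed by less than the spread in either.

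Fmod, which encodes the collagen-binding proteoglycan fibromodulin (chromosome 1, 134037254 to 134048277, plus strand), was highest in the LCtx at 1.498, 14.5 and 34.1 CPM. Medians elsewhere were 4.29 CPM (LH), 3.43 (Amy), 3.403 (NAc) and 1.13 (DS). The ranges overlapped, and 4 of 28 LCtx mice were above every LH mouse. Among 20 other meningeal and fibroblast genes, the summed level was also highest in the LCtx, with a median of 401 CPM against 117 to 169 elsewhere. Over mice of a structure, Fmod followed this sum with a Spearman rho of 0.83 (LCtx), 0.53 (DS), 0.48 (LH), 0.47 (Amy) and 0.30 (NAc), which are descriptions over points that share runs.

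Kl encodes Klotho, an anti-ageing coreceptor for fibroblast growth factors (chromosome 5, 150952607 to 150993817, plus strand). Its medians were 5.74 CPM (NAc), 5.48 (Amy), 4.96 (LH), 2.47 (LCtx) and 1.36 (DS). 1500015O10Rik (chromosome 1, 43730602 to 43742578, plus strand) had medians of 4.45 CPM (DS), 3.62 (LCtx), 2.81 (NAc), 2.14 (LH) and 2.12 (Amy). The ranges of all neighbours in either order overlapped.

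In the DS and NAc, 1500015O10Rik went with the ependyma. Its rho with the summed CPM of 12 ependymal genes over mice was 0.94 in the DS (n = 48) and 0.78 in the NAc (n = 36), against 0.37 (LCtx), 0.29 (Amy) and -0.02 (LH). Folr1, which encodes the folate receptor alpha that carries folate across the choroid plexus (chromosome 7, 101858331 to 101870788, minus strand), had a rho of 0.80 with that sum in the DS. Folr1 had medians of 0 to 1.12 CPM, had 3 counts or fewer in 133 libraries, and overlaps Anapc15 on the other strand, so that reads of the pair cannot be told apart unless strand was used in counting. With the 24 choroid plexus genes, rho of 1500015O10Rik and Folr1 lay between -0.22 and 0.55 over the 5 structures. All these rho are descriptions over mice that differ in run, code and experience.

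Bace2 (chromosome 16, 97356742 to 97442936, plus strand) had medians of 3.99 CPM (DS), 3.33 (NAc), 3.22 (LH), 2.11 (LCtx) and 1.68 (Amy). C3 (chromosome 17, 57203970 to 57228136, minus strand) had medians of 1.69 CPM (LH), 1.49 (NAc), 1.34 (DS), 0.949 (LCtx) and 0.362 (Amy). C3 had 3 counts or fewer in 104 libraries. Ranges of neighbouring structures overlapped for both genes.

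**Figure D3:**
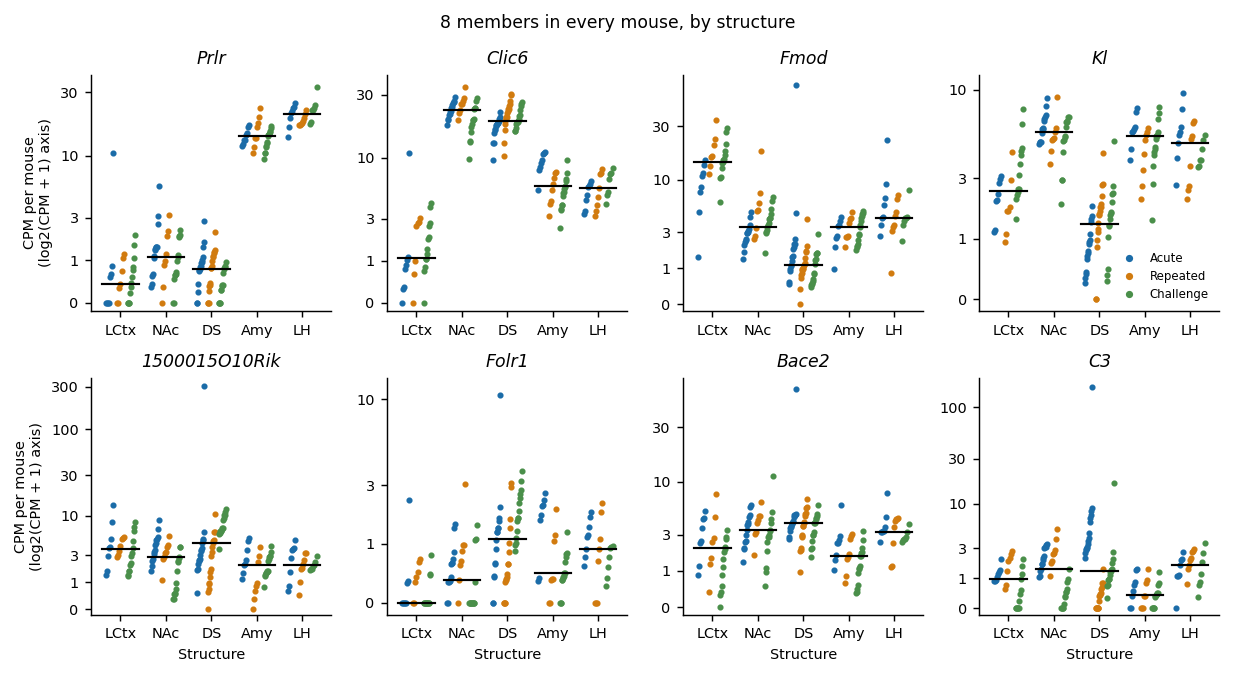
The 8 members other than Ttr in every mouse, in CPM on a log2(CPM + 1) axis, by structure, with points ordered by value within each experience and a line at the median of the structure. Prlr is high in the Amy and LH, Clic6 in the NAc and DS and Fmod in the LCtx, and the single point near 300 in the 1500015O10Rik panel is 1 acute DS mouse at 307 CPM.

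One LCtx mouse stood apart from its group. Acute LCtx 1 hr replicate 2 held 10.43 CPM of Prlr, 10.95 of Clic6, 13.3 of 1500015O10Rik and 2.35 of Folr1, the highest LCtx level of each. Its ependymal sum was 232 CPM, also the highest in the LCtx, where the median was 40.4. Ttr in that library was 0.782 CPM and Fmod 4.95 CPM.

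Ttr was set against the summed choroid plexus, meningeal and ependymal lists over the mice of each structure on the log2(CPM + 1) scale, and of these 15 relations 1 passed by Pearson r and 3 by Spearman rho. Without the 2 mice farthest from the median of the list 4 passed by r, and with levels centred on the experience 0 did. By r it was the meningeal list in the LCtx, and by rho the meningeal and ependymal lists in the LCtx and the meningeal list in the DS. The LCtx and NAc mice fell into separate clusters of Ttr by run, so no pooled value is given there. Within an experience, rho of Ttr with the meningeal list in the LCtx was -0.18 (acute, n = 8), -0.61 (repeated, n = 7) and 0.33 (challenge, n = 13, from 2 runs). In the Amy and LH, r with the lists lay between -0.12 and 0.38, and the lowest adjusted permutation p was 0.174. In the DS, 24 of 48 mice sum libraries of 2 runs. There the rho of Ttr with the meningeal sum was -0.40 (adjusted permutation p = 0.0242) and r was 0.22 (adjusted permutation p = 0.234), or -0.49 without the 2 mice farthest from the median of the list. On the DS libraries outside the shared run alone, chosen after seeing the data, rho was -0.29 (adjusted permutation p = 0.244) and r 0.29 (adjusted permutation p = 0.149), or -0.41 without the 2 farthest mice, so that the sign of r rested on those mice. Over the 45 relations of Ttr with a list within 1 structure and experience, rho ran from -0.73 to 0.71, and 26 were above 0. Relations with different lists in 1 such set share the same mice.

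Genes were ranked by likeness to Ttr across mice, as the median Spearman rho over the 5 structures, among 12612 genes with a mean of at least 1 CPM in every structure. Only 8 of the 24 choroid plexus genes passed that minimum and could be ranked. The first 10 genes were Rps9 (0.60), Tesc (0.53), Cox6a1 (0.52), Pcp2 (0.51), Cck (0.51), Fbxo2 (0.50), Ppp1r1a (0.49), H2afj (0.49), Rps15 (0.48) and Ldhb (0.48). Of these 10, 7 had a rho below 0 in the Amy and 5 in the LH, down to -0.37 and -0.35. Rps9 and Rps15 encode ribosomal proteins, Cck the neuropeptide cholecystokinin, and Pcp2 a protein of cerebellar Purkinje cells. Pcp2 had a rho with Ttr of 0.84 in the LCtx and 0.86 in the NAc, where points share runs, and -0.14 in the Amy. Pcp2 had a median of 0 CPM in the acute LCtx and in the shared DS run, and it was higher in the own run in 24 of 24 DS mice with 2 libraries, with 8 counts against 159. The part of the sequencing run in these likenesses was not tested.

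The contrasts between cocaine experiences and times called members in 22 of 185 tests, with 130 further combinations of gene and comparison too low to be tested. These were 6 of 48 tests at 0 hr, where 2.25% of all tests of genes were called, 10 of 48 over all times (11.3% of all) and 6 of 89 in the time courses (0.285% of all). One of the 22 rests on an arm of 1 mouse, in the LH. Ttr accounted for 10 of the 22 calls, 1500015O10Rik and Fmod for 4 each, Clic6 for 2, and Bace2 and C3 for 1 each. Kl was tested 23 times, Prlr 14 times and Folr1 once, and none of these was called.

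In the LCtx, Ttr rose at 0 hr in repeated against naive mice by 7.18 on the log2 scale (SE 0.41, adjusted p = 6.56e-17), where 1.39% of all genes were called. The naive mice of the fit held 0 and 0.559 CPM (run0250), and the repeated mice 48.5 and 55.2 CPM (run0222). Both naive levels lay under the floor of 3 counts, so the size of any difference from them is uncertain. Another naive mouse, outside the fit, held 0.599 CPM. In abstinent against naive mice it rose by 8.38 (SE 0.36, adjusted p = 4.96e-21; 8.36% of genes called). The abstinent mice held 106 and 118 CPM in run0215, and another library of one of them, in run0006 and outside the fit, held 1.26 CPM. With run0006 alone, an alternative chosen after seeing the data, the abstinent arm is 1 library at 1.26 CPM, and the difference was 1.91, with a spread taken from the other groups. Experience and run cannot be told apart in these contrasts.

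Taking all time points together, Ttr in the LCtx rose by 6.16 (SE 0.72, adjusted p = 2.64e-08) after repeated cocaine, with 3.7% of genes called, and by 5.39 (SE 0.77, adjusted p = 9.70e-07) at challenge, with 15.3% called. Limited to 1 challenge run, the challenge difference was 2.16 in run0006 (15.2% called) and 7.16 in run0215 (20.5% called). All these contrasts compare different runs.

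In the NAc the direction of Ttr depended on the run. At 0 hr it fell by 2.28 in abstinent against naive mice (SE 0.31, adjusted p = 3.48e-04; 2.81% called), while DESeq2 gave -2.52 and did not call it (adjusted p = 0.105). The naive mice of the fit held 89.1 and 110 CPM. Of the 2 abstinent mice, one held 4.79 CPM in run0006, and the other 2.82 CPM in run0006 and 64.2 CPM in run0215, or 29.3 CPM with both libraries summed, as fitted. Over all times the challenge difference was -0.30 (SE 0.33, adjusted p = 0.552; 18.4% called). With run0006 alone Ttr fell by 4.33 (SE 0.14, adjusted p = 1.17e-24; 21.5% called), and with run0215 alone it rose by 0.52 (SE 0.12, adjusted p = 8.70e-04; 22.8% called). In repeated against naive NAc mice at 0 hr the difference was -0.73 (adjusted p = 0.480; 0.0817% called).

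In the LH, where acute and repeated mice shared run0255, Ttr was lower after repeated cocaine. The naive mice held 233 and 378 CPM and the repeated mice at 0 hr 79.8 and 104 CPM, without overlap (log2 difference -1.70, SE 0.17, adjusted p = 1.04e-05; 1.64% called). Over all times it fell by 0.72 (SE 0.16, adjusted p = 0.00365; 4.37% called), with 67.4 to 143 CPM in 8 repeated mice and 98.9 to 378 CPM in 8 acute mice, which overlapped. Without the mice numbered replicate 2 of both groups it was -0.80 and was not called. The acute mice had code exp20 and the repeated mice exp17. In the 1 set of libraries that held more than 1 code for an experience, repeated DS mice of run0230, Ttr was 30.4 to 53.2 CPM with exp16 (n = 9) and 19.9 to 28.8 CPM with exp17 (n = 8), without overlap. The abstinent LH group for this contrast is 1 mouse at 112 and 148 CPM in its 2 libraries, assumed to vary like the other groups, so that the test has no spread of its own for this arm (log2 difference -1.33, SE 0.19, adjusted p = 0.00149; 0.668% called). DESeq2 gave -1.32 there and did not call it (adjusted p = 0.0776). At challenge over all times Ttr differed by -0.39 (adjusted p = 0.0849; 15.7% called), and by -0.68 (adjusted p = 0.0143) in run0215 alone, where 7.08% were called. In run0006 alone, where 19.1% of genes were called, Ttr in the LH was not called.

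Beside the fall of Ttr in the repeated LH, no other gene of the choroid plexus list was called. Of 24 such genes, 8 were tested at 0 hr and 7 over all times in the repeated contrast (median log2 difference -0.09 and -0.02, against 0.01 and 0.00 over all genes). In these contrasts edgeR called 1.64% and 4.37% of all genes. It called 0 of the 8 and 0 of the 7 in either direction, which is near those shares. At an unadjusted p under 0.05 these were 2 and 4 genes, and DESeq2 called 0, with no adjusted p for 7 of the 8 and 3 of the 7. At challenge in the LH, where Ttr was not called, edgeR called 15.7% of all genes and 2 of 7 choroid plexus genes. These were Lmx1a, higher by 1.196 (adjusted p = 0.00490), and Ace, lower (-0.51, adjusted p = 3.65e-04). DESeq2 called 2 of the list. The Amy had no member called at 0 hr by edgeR, where 0.26% of genes were called in repeated and 3.47% in abstinent mice. In each of these Amy contrasts 1 of 6 tested members had an unadjusted p under 0.05, and DESeq2 called 0, giving 5 of the 6 no adjusted p.

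Within a day, Ttr changed with time after a first dose of cocaine in 2 structures. LH mice held 233 and 378 CPM at 0 hr, 186 and 211 at 1 hr, 98.9 and 142 at 2 hr and 121 and 139 at 4 hr, so that the mice at 2 and 4 hr lay below all mice at 0 and 1 hr. The Ttr course was called, with log2 differences from 0 hr of -0.63, -1.36 and -1.25 at 1, 2 and 4 hr (adjusted p = 3.25e-08; 0.193% of genes called). In the NAc the course was called with differences of -0.17, -0.41 and -0.52 (adjusted p = 0.0142; 0.442% called), from 79.3 to 110 CPM at 0 hr (n = 4) to 59.4 to 70.6 CPM at 4 hr (n = 3). Leaving out the mice numbered replicate 1 or replicate 2 ended the NAc call, with -0.39 and -0.50 at the largest. DESeq2 gave Ttr at its largest -1.35 in the LH and -0.52 in the NAc, but no adjusted p for any of the 7 members tested in either course. All libraries of each of these courses came from 1 run. The courses are not independent, since 7 of the 8 acute LH animals were also in the acute NAc, both 0 hr LH mice among them. Replicate 1 at 0 hr (exp20, animal number 1) was the acute mouse with the highest Ttr in the LH at 378 CPM, the NAc at 110, the Amy at 249 and the DS at 184. Without this mouse, a fit chosen after seeing the data, the 0 hr arm of the LH course is 1 mouse at 233 CPM, assumed to vary like the other groups. The differences from it were -0.22, -0.95 and -0.84 at 1, 2 and 4 hr (adjusted p = 4.62e-06), with no spread of its own for the arm that all 3 are taken from. The NAc course, with 3 mice left at 0 hr, was not called, with -0.07, -0.31 and -0.42 (adjusted p = 0.0533). The naive LH mice are those of the 0 hr contrasts, so that these results share their controls.

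The time courses gave no Ttr call after repeated cocaine or challenge. In the LH repeated mice Ttr was 79.8 and 104 CPM at 0 hr, 120 and 143 at 1 hr, 67.4 and 114 at 2 hr and 110 and 135 at 4 hr. In the acute LH course edgeR called 0.193% of all genes. There 10 choroid plexus genes were tested and 0 were called by edgeR or DESeq2, which is near that share. DESeq2 gave no adjusted p for 9 of them, and 5 had an unadjusted edgeR p under 0.05. In the same course, of the 4 hypothalamic neuron genes Pmch fell by 0.41 (adjusted p = 1.02e-07) and Hcrt by 0.35 (adjusted p = 0.04999). The difference in the Ttr course between experiences was not tested.

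**Figure D4:**
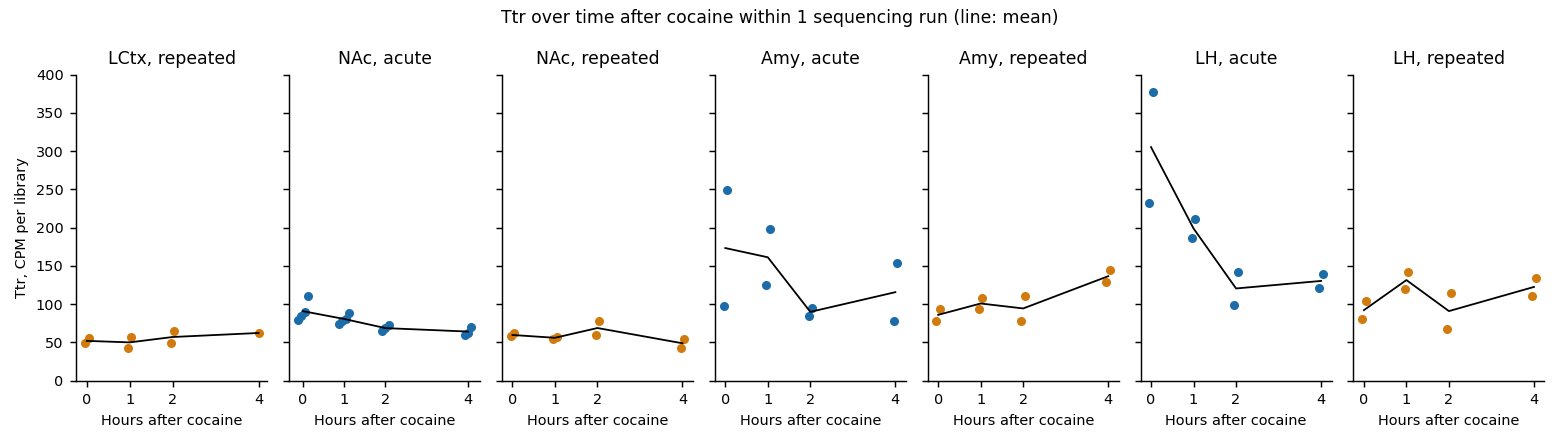
Ttr in CPM per library on a linear axis at 0, 1, 2 and 4 hr after cocaine in 7 courses with all libraries in 1 run, those of repeated LCtx and NAc mice (run0222), acute NAc mice (run0010) and acute and repeated Amy and LH mice (run0255), with points ordered by value and a line through the means. Acute LH mice start at 233 and 378 CPM and lie at 98.9 to 142 CPM at 2 and 4 hr; acute NAc mice lie between 59.4 and 110 CPM throughout.

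Fmod differed with repeated cocaine in cortex and NAc. In the LCtx mice fitted it was 4.95 to 15.1 CPM in 7 acute, 11.3 to 34.1 in 7 repeated and 6.14 to 29.2 in 8 challenge mice. Fmod rose by 0.90 (SE 0.24, adjusted p = 0.0175; 3.7% of genes called) after repeated cocaine, and 13 of 19 tested meningeal genes rose with it (median 0.80, 0 lower). The Fmod call was lost without the mice numbered replicate 1 (1.24) or replicate 2 (0.66). At challenge Fmod differed by 0.60 (SE 0.24, adjusted p = 0.0774) and was not called. Split by challenge run, a choice made after seeing the data, it differed by 0.37 in run0006, which was not called, and rose by 0.83 (SE 0.24, adjusted p = 0.00628) in run0215. Of 11 striatal neuron genes, 9 also rose in the repeated LCtx, and 11 of 12 blood cell genes were lower, with a median of -4.39. Striatal, blood and meningeal RNA thus moved with the experience and the run alike in these LCtx dissections, and their part in the Fmod difference was not tested.

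At 0 hr Fmod rose by 1.40 (SE 0.36, adjusted p = 0.00848) in abstinent LCtx mice, of which replicate 1 held 9.12 CPM in run0006 and 12.7 in run0215, the library fitted, and replicate 2 held 29.2 CPM in run0215, against 7.67 and 8.66 CPM in the 2 naive mice fitted. A naive mouse outside the fit held 1.498 CPM. DESeq2 gave 1.41 and did not call it (adjusted p = 0.0517). The difference was 0.67 without the abstinent mouse at 29.2 CPM and 1.32 without naive replicate 2 (adjusted p = 0.463 and 0.0520). With run0006 alone it was 0.17. Each of these 3 fits has an arm of 1 mouse, assumed to vary like the other groups. In the NAc, Fmod was 1.41 to 4.93 CPM in the 8 acute and 2.54 to 18.3 CPM in the 8 repeated mice fitted (log2 difference 1.09, SE 0.33, adjusted p = 0.0455; 3.15% called). The call was lost when any of replicates 1 to 4 was left out, with 0.57 as the lowest value. Beside it 4 of 15 meningeal genes rose and 0 fell.

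1500015O10Rik changed beside ependymal genes in the NAc and DS. In the NAc mice fitted it was 1.63 to 8.73 CPM in 8 acute and 0.294 to 3.96 CPM in 7 challenge mice, and fell by 1.33 (SE 0.36, adjusted p = 0.00543; 18.4% of genes called). The call was lost without the mice numbered replicate 1 (-1.29) or replicate 3 (-0.78). 1500015O10Rik fell in each challenge run taken alone, by 1.48 in run0006 (adjusted p = 5.12e-04; 21.5% called) and by 1.09 in run0215 (adjusted p = 0.0234; 22.8% called). Beside it 8 of 10 ependymal genes fell (median -1.03), among them Ccdc153, a ciliary gene, by 2.21 (adjusted p = 2.83e-06), and 4 of 4 cortical excitatory neuron genes rose. The part of these dissection markers was not tested.

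In the shared DS run, 1500015O10Rik was 0 to 3.68 CPM in 8 acute, 1.18 to 11.96 in 8 repeated and 2.62 to 11.7 in 8 challenge libraries. It rose by 1.34 (SE 0.47, adjusted p = 0.0396; 14.3% called) after repeated cocaine and by 2.03 (SE 0.46, adjusted p = 5.55e-04; 17.8% called) at challenge. The repeated difference was 0.98 to 1.62 and not called when replicate 1, 3, 4 or 5 was left out. The 8 repeated libraries of the shared run all had code exp17. In run0230, where both codes of repeated mice were sequenced, 1500015O10Rik was 3.79 to 9.498 CPM with exp17 (n = 8) and 0 to 3.33 CPM with exp16 (n = 9), without overlap, and the part of the code in the shared-run difference was not tested. Of 9 ependymal genes tested, 8 rose in each contrast (medians 1.57 and 1.75), with the ciliary kinase gene Ak7 up by 2.18 at challenge. Clic6, the other member tested there, differed by 0.07 (adjusted p = 0.860) and 0.01 (adjusted p = 0.993). At 0 hr in the DS, where 1.33% and 2.57% of genes were called in repeated and abstinent mice, no member was called by edgeR. Of the 2 members tested there 0 had an unadjusted p under 0.05 in either contrast, and DESeq2 gave neither an adjusted p.

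Outside the shared run the same DS contrasts read otherwise, a comparison chosen after seeing the data. Between run0230 and run0090, 1500015O10Rik fell by 1.90 after repeated cocaine (adjusted p = 0.00217; 45.9% of genes called) and differed by -0.48 at challenge (adjusted p = 0.408; 48.6% called). With acute 0 hr replicate 1 also left out, the difference was 0.01 (adjusted p = 0.983; 45.4% called) after repeated cocaine, and at challenge the gene rose by 1.18 (SE 0.24, adjusted p = 2.15e-05; 48.6% called). One mouse therefore turned the sign of the challenge difference. C3 fell by 5.24 and 2.23 in these contrasts and by 4.10 and 1.39 without that mouse, in each case called, although its shared-run levels were 0 to 2.87 CPM in all experiences. Ttr fell by 0.93 and 0.64, and by 0.74 and 0.45 without the mouse. Clic6 rose by 0.42 and 0.31, and by 0.41 and 0.30 without the mouse (adjusted p = 3.11e-04 and 0.00779). Bace2 fell by 0.85 and 0.82, but differed by -0.15 in both contrasts without the mouse and was then not called.

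Clic6 was lower in the Amy of repeated and challenge mice than of acute mice, of which only those at 0 hr were naive. In the mice fitted it was 5.47 to 11.1 CPM in 8 acute, 3.22 to 7.61 in 8 repeated and 2.46 to 6.70 in 7 challenge mice, with overlap between all groups. It fell by 0.66 (SE 0.20, adjusted p = 0.0150; 9.13% called) after repeated cocaine, within run0255 but between codes exp20 and exp17, and by 0.91 (SE 0.20, adjusted p = 8.96e-04; 11.6% called) at challenge. Without the mice numbered replicate 1 the differences were -0.51 and -0.88, without replicate 2 the repeated one was -0.79, and none of these was called. Taken alone, the challenge libraries of run0006 gave -0.74 (18.5% of genes called) and those of run0215 -0.77 (9.51% called), each with Clic6 called. Of 11 striatal neuron genes, 9 fell beside it in each contrast, and 5 of 10 ependymal genes fell at challenge, with Tmem212 at -3.53. The summed striatal genes were 935 to 2074 CPM over Amy mice. Clic6 was itself highest in the striatum, and the part of striatal tissue in its difference was not tested.

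Most time courses moved few genes and no member. The share of all genes called was 0.00797%, 0.155% and 0.0656% in the LCtx after acute, repeated and challenge cocaine, 0.0323% and 0.0563% in the NAc after repeated and challenge cocaine, and 0.369% and 0.807% in the DS after repeated and challenge cocaine. In the Amy it was 0.127%, 0.0405% and 0.106%, and in the LH after repeated and challenge cocaine 0.133% and 0.00768%. In these 12 courses edgeR called 0 of 69 tests of a member, of which 12 had an unadjusted p under 0.05, and DESeq2 called 0.

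The acute DS course was the exception, with 1.76% of genes called and 4 of 6 tested members falling. 1500015O10Rik fell by 4.86 at its largest (adjusted p = 0.00131), Fmod by 4.24 (adjusted p = 0.00877), C3 by 3.18 (adjusted p = 0.0141) and Bace2 by 2.37 (adjusted p = 0.0366).

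One mouse stood apart in this course. Acute DS 0 hr replicate 1, which shares its code and animal number with the naive mouse highest in Ttr in the LH, NAc and Amy, held 307 CPM of 1500015O10Rik, while the other 15 libraries of run0090 held 0.817 to 6.24. C3 was 160 CPM against 2.90 to 8.996, Fmod 67.5 against 0.562 to 4.86, and Bace2 63.7 against 2.20 to 5.42. Ttr was 184 CPM against 30.05 to 70.8, and Folr1 10.5 against 0 to 2.08. Clic6 at 16.6 CPM, Kl at 0.339 and Prlr at 1.02 lay within the range of the others. The mouse was above all others in 6 of 9 members.

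The counts of genes given for this library are descriptions, since the share of all genes in which it was highest or lowest is not given. The same library was above all 15 others in 12 of 12 ependymal genes, with a sum of 367 CPM. It was highest in 7 of 20 meningeal genes, among them Igfbp2, an insulin-like growth factor binding protein, at 253 CPM, and Ogn, a small proteoglycan, at 41.7 CPM, and below all others in 2, Mgp and Moxd1. The meningeal sum was 407 CPM against 89.7 to 142. It was highest in 11 of 24 choroid plexus genes, among them Otx2 at 2.71 CPM against at most 0.311, and 2 of the 11 had 3 counts or fewer. The sum of the choroid plexus list was 308 CPM, within the 282 to 379 CPM of the others. Enpp2, a large part of that sum, was the 1 gene of the list below all others, at 159 CPM against 167 to 228. Kcne2 at 1.02 CPM lay within the range of the others, of which the highest was 1.22. It was also highest in 3 of 8 astrocyte genes, with Gfap at 87.8 CPM against at most 40.9, Aqp4 at 107 against 55.9 and Sox9 at 46.1 against 24.3. It was below all others in 2 astrocyte genes, Slc1a2 (1682 CPM against at least 1935) and S100b (166 against at least 189), and the astrocyte sum of 2668 CPM lay near the lowest of the others (2662 to 3611). Of 16 endothelial and mural genes it was highest in 2, Acta2 (57.3 CPM against 8.52) and Tagln (101 against 22.7), and below all others in 6, Cldn5, Ly6c1, Pecam1, Vtn, Rgs5 and Myh11, the last at 0 counts. The sum of these 16 genes was 518 CPM, within the 403 to 608 CPM of the others. Lcn2, one of 2 such genes among 12 blood cell genes, was at 29.2 CPM against 1.24. The library was above all others in 2 of 4 cortical excitatory neuron genes, 0 of 11 striatal neuron genes, 0 of 4 hypothalamic neuron genes and 0 of 8 microglial genes. It was below all 15 others in 10 of the 11 striatal neuron genes, with a sum of 12807 CPM against 14495 to 16647. The adenosine receptor gene Adora2a was at 50.2 CPM against at least 109.6, while Penk, the exception, was at 3746 CPM against at least 3722.

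Without this mouse, a fit chosen after seeing the data, 2.01% of genes were called in the acute DS course and no member was by edgeR. Only Ttr had an unadjusted p under 0.05 (1 of 6 tested members, adjusted p = 0.133), and DESeq2 called 0. 1500015O10Rik then differed by -0.46 (adjusted p = 0.904), Fmod by -0.82 (adjusted p = 0.620), Bace2 by -0.13 (adjusted p = 0.992) and C3 by 0.44 (adjusted p = 0.689) at their largest. The calls of these 4 genes thus rested on 1 naive mouse.

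**Figure D5:**
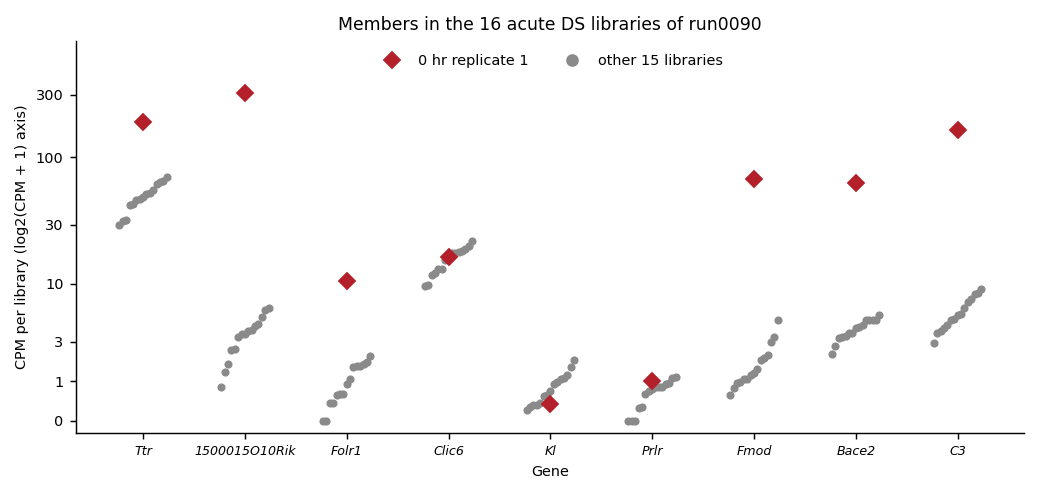
The 9 members in the 16 acute DS libraries of run0090, in CPM on a log2(CPM + 1) axis, with 0 hr replicate 1 as a diamond and the other 15 libraries, at all times, as points ordered by value. The diamond is above every point for Ttr, 1500015O10Rik, Folr1, Fmod, Bace2 and C3, and among the points for Clic6, Kl and Prlr.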

How the data were processed

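Bulk 3′ RNA-seq of dissected mouse brain structures was used. The deposited values are whole counts per gene, which the authors made by removing PCR duplicates by molecular identifier, aligning reads to GRCm38 with STAR and counting with HTSeq (versions not given in the sources used here). The table had 19363 genes, of which 197 had no count, and 0 columns of other samples. Library totals of 1193306 to 10367769 counts set the precision, and a level at or under the floor of 3 counts was read as not measurable. Intervals and floors cover counting error only.

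Groups came from the sample labels. The members and lists were chosen with earlier results of these data known. Libraries of 1 mouse were summed, except where runs were compared. Levels are CPM, and correlations over mice used log2(CPM + 1), with 100000 two-sided permutations (smallest possible p 1e-05). Comparisons were fitted on the whole table with edgeR 4.0.16 in R 4.3.3 (filterByExpr, TMM, quasi-likelihood test): experiences at 0 hr, experiences over all times, and time courses from 0 hr within an experience. Genes were called at a Benjamini-Hochberg adjusted p under 0.05 and a fold change over 1.2. Comparisons of experiences used the libraries that the study marks for baseline shifts, with other abstinent NAc and Amy mice added at 0 hr, time courses those it marks for induced genes and, in the LH, all libraries, and DS comparisons over all times used the shared run. Single mice at 4 hr in the LCtx were left out of the time tests. All 9 members were named, with the 10 genes most like Ttr, up to 3 called genes of a list with the largest change, and structure markers. Scripts were tested on simulated data. DESeq2 1.42.0, other size factors, filters, thresholds, replicate blocks and omitted replicates were alternatives. Positions are from GENCODE M21, which may not be the annotation the authors used. Tables were handled with pandas 2.3.3 and scipy 1.17.1.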

Additional observations from a re-analysis of the deposited data

Results flagged for a closer look

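In groups of 4 or 5 mice, 19 of 141 values of a member had a highest or lowest mouse whose gap to its nearest neighbour was a large share of the group's range (Dixon's test at the 95% level, which chance meets in about 1 in 20 groups). Levels are CPM with the libraries of a mouse summed, and the nearest other mouse of the group is given after each.

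Acute DS 0 hr replicate 1 was far above the other 3 mice of its group in 5 members. It held 184 CPM of Ttr against 46.5, 307 of 1500015O10Rik against 6.24, 67.5 of Fmod against 4.86, 63.7 of Bace2 against 4.86 and 160 of C3 against 6.24.

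Challenge NAc 1 hr replicate 2 stood apart in 3 members. It was lowest in Clic6 at 9.71 CPM (nearest 19.3) and in Kl at 2.91 CPM (nearest 5.17), and highest in Fmod at 6.31 CPM (nearest 3.47).

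Among the other DS groups, Ttr was highest in acute 1 hr replicate 2 at 66.0 CPM (nearest 42.9) and in challenge 2 hr replicate 3 at 45.2 CPM (nearest 32.1). These levels sum the libraries of a mouse, and shared-run libraries were low in Ttr. In run0090 alone, acute 1 hr replicates 3 and 4 held 62.4 and 70.8 CPM, so replicate 2 was not the highest there. In run0230 alone, challenge 2 hr replicates 1 and 2 held 42.0 and 40.6 CPM, nearer to replicate 3. 1500015O10Rik was lowest in challenge 4 hr replicate 4 at 3.70 CPM (nearest 6.48). Kl was lowest in repeated 2 hr replicate 2 at 0 CPM (nearest 1.16), Fmod highest in repeated 0 hr replicate 3 at 4.14 CPM (nearest 1.13), and C3 highest in challenge 1 hr replicate 4 at 16.8 CPM (nearest 2.08).

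In the remaining groups, 1500015O10Rik was highest in challenge Amy 1 hr replicate 1 at 4.01 CPM (nearest 1.67). Kl was highest in challenge LCtx 2 hr replicate 1 at 7.81 CPM (nearest 2.51), and Bace2 in challenge NAc 2 hr replicate 2 at 11.3 CPM (nearest 3.29). Prlr was lowest in acute NAc 1 hr replicate 2 at 0.607 CPM (nearest 1.41), and C3 in acute NAc 1 hr replicate 3 at 1.77 CPM (nearest 3.04).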

How the results depend on the processing

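With a block for the replicate number, 7, 7 and 6 member calls were made in the 0 hr, all-times and time course comparisons, with 3229, 11017 and 626 calls over all genes. Same-numbered mice did not deviate together (median correlation -0.00695 to 0.0117), so the numbers do not pair the samples. Of 22 called member values, 5 were no longer called under the block: Fmod in repeated NAc (1.13), 1500015O10Rik in repeated (1.00) and challenge DS (1.97), and Bace2 (-1.92) and C3 (-2.40) in the acute DS course.

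At 0 hr, the 6 member calls became 3 with DESeq2 and 12 with every 0 hr mouse and run, and the 2735 calls over all genes became 1577 at a fold change of 1.5 and 6395 with every mouse and run; leaving out a replicate gave 5 to 7 and 2215 to 3229. Over all times, the 10 member calls became 19 without a filter on low counts, 17 with every mouse and run and 17 with DS libraries outside the shared run, and the 13561 calls over all genes became 2989 at 1.5, 21467 outside the shared run and 21403 also without acute DS 0 hr replicate 1; leaving out a replicate gave 7 to 9 and 7714 to 13455. In the time courses, the 6 member calls became 1 with DESeq2, which gave no adjusted p for 5 of them, 19 without a filter, 10 with genes selected over all experiences first and 2 without acute DS 0 hr replicate 1, and the 532 calls over all genes became 1737 without a filter and 332 at 1.5; leaving out a replicate gave 1 to 7 and 266 to 1303. Alternatives by run and without that mouse were chosen after seeing the data. With every mouse and run, 1500015O10Rik in the DS turned to -1.65 after repeated cocaine and -0.31 at challenge, and outside the shared run to -1.90 and -0.48. C3 in the acute DS course lay between -3.83 and 0.44 when a replicate was left out. Pearson r of Ttr turned to -0.49 with the DS meningeal sum, -0.0087 with the LH choroid plexus sum and 0.20 with the LH meningeal sum without the 2 farthest mice, to 0.32 and 0.11 with the Amy meningeal and ependymal sums centred on the experience, and to 0.0014 with the LH meningeal sum on TMM-scaled levels. On DS libraries outside the shared run, r with the ependymal sum turned to 0.0116. Structure medians moved by less than 1 SD under every alternative tried. For Ttr in the LCtx, NAc and DS that SD includes the differences between runs, so it is a wide limit. Members at a few counts per library, above all Folr1 and C3, were limited by depth.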
